A study of Mus musculus with 2 samples.

Results

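The transcripts of 42 cell cycle genes were followed across the immune cells of the inflamed mouse central nervous system. The genes were chosen by symbol from the 32285 genes of both count matrices: 22 mitotic genes, 17 S-phase genes and 3 general genes of dividing cells, Stmn1, Hmgb2 and Tubb5. The cells came from C57BL/6 mice 15 days after immunization against myelin, which gives experimental autoimmune encephalomyelitis (EAE), a disease of mice used to model multiple sclerosis; both groups were immunized with a myelin oligodendrocyte glycoprotein (MOG) peptide in complete Freund's adjuvant, with pertussis toxin. One group was Stat4fl/flCD11cCre, with loxP sites in Stat4 and Cre expressed from the CD11c promoter, so that cells with an active CD11c promoter should lose Stat4, and the other was WT. Mononuclear cells of the central nervous system were pooled within each group, sorted for MHC class II and CD11c, and profiled as 1 single-cell RNA library per genotype. Whether Stat4 was lost was not checked here, because the exons that are floxed are not given in the sources used. CD11c is not confined to dendritic cells (DCs), so the Cre may act in other cells too.

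A dividing cell first copies its DNA in S phase and then separates the copies in mitosis. The genes for DNA replication, such as those of the MCM helicase that opens the double strand, are switched on at the start of S phase by E2F transcription factors. The mitotic genes, such as those of cyclin B and of the spindle kinases, are held down in resting cells by the DREAM complex and switched on late by MYB-MuvB and FOXM1, which act through a DNA element named the cell cycle genes homology region (CHR), often beside CCAAT boxes bound by NF-Y. In the adult brain and spinal cord microglia divide slowly, and they are known to proliferate in inflammation. Monocytes, neutrophils and T cells enter from the blood, and activated T cells divide in the tissue.

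The S-phase and mitotic genes differ in the letters of their promoters. RefSeq windows of GRCm38.p6, covering 250 bases before and 50 after each annotated start, were matched for 35 of the 42 genes (19 mitotic, 14 S-phase and 2 general). The 7 unmatched genes were Ccna2, Aurkb, Tpx2, Mcm4, Gins2, Ccne2 and Stmn1. The CHR letters TTTGAA, on either strand, occurred in the windows of 14 of 19 mitotic genes (73.7%), 2 of 14 S-phase genes (14.3%) and 20.2% of all 27025 genes with a window. The E2F letters TTCCCGC or TTGGCGC occurred in 3 of 19 mitotic genes (15.8%), 7 of 14 S-phase genes and 7.79% of all genes. CCAAT, on either strand, occurred in 17 of 19 mitotic genes (89.5%), 11 of 14 S-phase genes (78.6%) and 41.1% of all genes. These are matches of letters, not measured binding, and a window without a match says nothing of the factor. A pair of windows of each kind is printed 5′ to 3′ on the gene's own strand, with the matched letters of either strand in capitals (TTTGAA or its complement TTCAAA for CHR, CCAAT or ATTGG, and TTGGCGC or GCGCCAA for E2F), because they show the difference between both gene groups. Ccnb2, which encodes cyclin B2, has its window at chr9:70421505-70421804 on the minus strand. Top2a, the topoisomerase that untangles chromosomes, has it at chr11:99024140-99024439 on the minus strand. Mcm5 and Mcm6, subunits of the replicative helicase, have theirs at chr8:75109259-75109558 on the plus strand and chr1:128359656-128359955 on the minus strand.
Ccnb2: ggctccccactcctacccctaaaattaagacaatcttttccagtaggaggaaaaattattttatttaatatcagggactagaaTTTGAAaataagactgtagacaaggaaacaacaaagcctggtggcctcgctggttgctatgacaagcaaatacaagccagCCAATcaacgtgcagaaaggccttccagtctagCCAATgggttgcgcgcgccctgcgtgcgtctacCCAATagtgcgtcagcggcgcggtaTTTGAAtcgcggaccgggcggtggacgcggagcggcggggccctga
Top2a: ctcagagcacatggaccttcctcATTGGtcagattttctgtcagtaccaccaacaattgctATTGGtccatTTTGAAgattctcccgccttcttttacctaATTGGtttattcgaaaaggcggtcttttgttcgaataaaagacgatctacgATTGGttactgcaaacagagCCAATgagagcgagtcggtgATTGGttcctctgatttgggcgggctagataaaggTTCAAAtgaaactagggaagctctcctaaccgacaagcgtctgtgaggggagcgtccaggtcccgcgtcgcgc
Mcm5: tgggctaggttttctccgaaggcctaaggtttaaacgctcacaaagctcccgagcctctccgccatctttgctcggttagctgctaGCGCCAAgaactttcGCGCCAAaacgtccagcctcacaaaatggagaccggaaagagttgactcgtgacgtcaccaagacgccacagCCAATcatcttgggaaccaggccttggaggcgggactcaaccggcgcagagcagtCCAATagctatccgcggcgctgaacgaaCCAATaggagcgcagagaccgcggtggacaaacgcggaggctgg
Mcm6: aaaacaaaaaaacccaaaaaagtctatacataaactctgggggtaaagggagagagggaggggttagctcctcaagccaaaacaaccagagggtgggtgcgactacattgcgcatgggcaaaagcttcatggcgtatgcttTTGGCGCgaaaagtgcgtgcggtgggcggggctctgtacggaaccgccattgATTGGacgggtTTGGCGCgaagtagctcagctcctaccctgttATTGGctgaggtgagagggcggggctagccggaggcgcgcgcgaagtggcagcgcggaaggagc
The Ccnb2 and Top2a windows hold 2 CHR matches each and none for E2F. The Mcm5 and Mcm6 windows hold 2 E2F matches each and none for CHR. No E2F or CHR match in these 4 windows overlaps a CCAAT match.

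The Stat4fl/flCD11cCre library held 12534 barcodes and 120221740 gene UMIs (counted RNA molecules), and the WT library 13820 barcodes and 122975017 gene UMIs. After the cell filter 12305 and 13298 cells were kept, with medians of 6878 and 6440.5 UMIs, and 42 of the kept barcodes occurred in both libraries. Cells were placed in 10 classes by marker genes and are named by their gate, as in microglia-like, since the names rest on these markers. Microglia-like cells made up 48.4% of Stat4fl/flCD11cCre cells and 31.8% of WT cells. The monocyte or macrophage-like class held 17.8% and 21.3%, and the T cell-like class 8.93% and 18.2%. Cells that met no gate or several, 10.1% and 16.4%, were left ungated. The sort was for MHC class II and CD11c, proteins of antigen-presenting cells, and T cells, neutrophils and choroid plexus epithelium are not its usual targets. Every share of a class is a share of sorted cells. With 1 library per genotype, made from a pool, genotype and library cannot be told apart, no difference has a replicate check and no p-value is given. Every interval is at the 95% level and covers counting error only. Intervals of gene levels and of summed UMIs also take each UMI as independent. They are too narrow where the UMIs are grouped in few cycling cells.

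A cell was called cycling when 3 or more of the 39 S-phase and mitotic genes were found after its counts were thinned to 2500 UMIs. Among all cells of that depth, 914 of 11538 Stat4fl/flCD11cCre cells (7.92%, 7.44 to 8.43) and 1312 of 12001 WT cells (10.9%, 10.4 to 11.5) were cycling. Without microglia-like cells the shares were 11.7% and 10.8%, with a ratio of 1.08 (0.975 to 1.19). The shares differed widely between classes. Nearly all granulocyte-monocyte progenitor-like cells were cycling, 55 of 57 (96.5%) in Stat4fl/flCD11cCre and 39 of 40 (97.5%) in WT. T cell-like cells stood at 18.6% and 19.3%, and NK cell-like cells at 14.2% and 13.7%. Conventional DC-like cells stood at 9.14% (16 of 175) and 7.54% (15 of 199), and plasmacytoid DC-like cells at 7.89% (15 of 190) and 6.79% (11 of 162). In both libraries the interval of T cell-like cells lay above those of both DC classes, while that of NK cell-like cells overlapped all 3. Microglia-like, monocyte or macrophage-like, neutrophil-like and B cell-like cells, whose shares differed more between the libraries, are described one by one. Choroid plexus epithelium-like cells, an epithelium taken here as largely resting, had 0 of 84 and 0 of 137 cycling cells at median depths of 8760 and 7661 UMIs. A limit of 3 counts allows shares of up to 3.57% and 2.19%, and the upper Clopper-Pearson bounds are 4.3% and 2.66%. Without thinning the shares were higher: 3.53% and 6.29% of choroid plexus epithelium-like cells then pass the rule, against 17.4% and 27.9% of microglia-like cells.

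**Figure D1:**
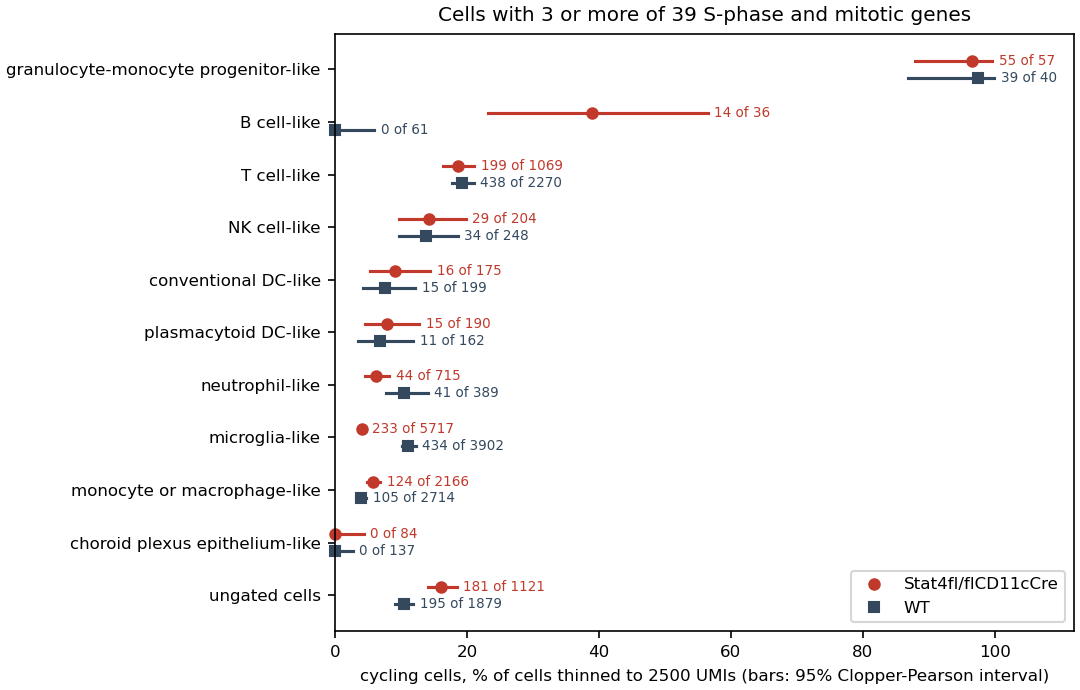
Share of cycling cells (3 or more of 39 genes found in 2500 UMIs, in percent) in each class, with red circles for Stat4fl/flCD11cCre, dark squares for WT and bars for the Clopper-Pearson interval; the numbers give cycling cells of all cells. The genotypes stand apart in microglia-like cells (4.08% and 11.1%) and B cell-like cells (14 of 36 and 0 of 61), and lie close together in T cell-like cells (18.6% and 19.3%).

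Microglia-like cells, the largest class, had a lower cycling share in Stat4fl/flCD11cCre. There, 233 of 5717 were cycling (4.08%, 3.58 to 4.62), and in WT 434 of 3902 (11.1%, 10.2 to 12.2), a ratio of 0.366 (0.311 to 0.431). Both classes had nearly the same depth before thinning, with medians of 5618 and 5564 UMIs. The ratio was 0.622 (0.571 to 0.677) without thinning, at 17.4% and 27.9%, and 0.233 (0.18 to 0.299) in cells under 10000 UMIs. That limit kept unequal parts of the cycling cells, 88 of the 233 and 243 of the 434. At the far end, 54 of 5717 and 79 of 3902 cells held 10 or more of the genes. The transcripts of the MHC class II gene H2-Aa were found in 1395 of the 5717 Stat4fl/flCD11cCre cells and 2873 of the 3902 WT cells. Its protein is part of what the sort selects, and microglia-like cells were split by its transcript. With H2-Aa, 6.45% and 11.4% were cycling (ratio 0.565, 0.442 to 0.716). Without H2-Aa, the shares were 3.31% and 10.3% (ratio 0.321, 0.248 to 0.417). The ratio was below 1 on both sides of this split. Cells with H2-Aa had medians of 12717 and 6914 UMIs and cells without it 5252 and 4661, so depth moved with the split, and its part in the result was not tested.

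All 42 genes had lower levels in microglia-like cells of Stat4fl/flCD11cCre than of WT, as CPM, the UMIs of a gene scaled to the total UMIs of the class. Of them, 14 were lower by 1.5-fold or more, against 9.17% of the 14314 genes with 50 or more UMIs in the class, and 0 were higher by 1.5-fold, against 6.78%. The median log2 ratio was -0.47 over the 42 genes and 0.07 over all genes. By kind, 10 of 22 mitotic genes (median -0.54), 4 of 17 S-phase genes (median -0.35) and 0 of 3 general genes (median -0.30) passed 1.5-fold. Without the 30 and 2 cells with progenitor genes, described with the monocyte class, 24 genes were lower by 1.5-fold, and sums over thinned cells gave 34 of 41. The share over all genes was not computed in either setting.

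The furthest apart were the E-type cyclins, which start S phase with CDK2. Ccne2 had 2.32 CPM in Stat4fl/flCD11cCre and 5.49 in WT (log2 ratio -1.25, -1.58 to -0.92). Ccne1 had 2.06 and 4.65 CPM (-1.18, -1.53 to -0.83). Next came Nusap1, a spindle microtubule-binding protein, with 9.23 and 16.8 CPM (-0.86, -1.03 to -0.69). Top2a had 34.5 and 58.7 CPM (-0.76, -0.85 to -0.68), and its transcript was found in 2.31% and 6.0% of thinned cells. Mki67, the standard marker of proliferation that coats mitotic chromosomes, had 24.9 and 34.4 CPM (-0.47, -0.58 to -0.35), and was found in 2.06% and 4.59% of thinned cells. Among the other mitotic genes, Ccnb1 (cyclin B1) had 4.63 and 6.73 CPM (-0.54, -0.79 to -0.28), while for Ccna2 (cyclin A2) the interval reached past 0, at 5.79 and 6.24 CPM (-0.11, -0.35 to 0.14). The same held for Aurka, a kinase of the spindle poles, at 4.58 and 5.47 CPM (-0.26, -0.53 to 0.02). The replication genes varied. Mcm5 had 8.06 and 10.0 CPM (-0.31, -0.51 to -0.11) and Mcm6 14.1 and 19.7 CPM (-0.48, -0.63 to -0.34). Tyms, the enzyme that makes thymidylate for DNA, had 13.9 and 15.9 CPM (-0.20, -0.36 to -0.04). Pcna, the sliding clamp of DNA polymerase, which also serves DNA repair, had 59.9 and 64.4 CPM (-0.10, -0.18 to -0.03). Mcm3 had 26.3 and 27.1 CPM (-0.05, -0.16 to 0.07) and Cdc45, which joins the helicase when it is switched on, 2.62 and 3.34 CPM (-0.35, -0.71 to 0.00), both with an interval that reached 0. Of the general genes, Stmn1, which destabilizes microtubules, had 70.3 and 88.8 CPM (-0.34), Tubb5, a beta-tubulin, 215 and 265 CPM (-0.30), and Hmgb2, a chromatin protein, 227 and 244 CPM (-0.10). Pseudogenes of Ccnb1, Stmn1, Tyms and Pcna are annotated in the mouse genome, and how reads shared with them were counted is not given in the sources used here.

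Cycling microglia-like cells were deeper than the rest of their class, and markers of classical monocytes were found in them more often. Their median depth was 14465 UMIs in Stat4fl/flCD11cCre and 8923 in WT, against 5660.5 and 5698 in cells not cycling. The 12 microglia markers were found, on average, in 86.5% and 80.6% of the cycling cells and in 91.5% and 82.3% of the others. The 12 markers of classical monocytes were found in 19.3% and 18% of the cycling cells, against 8.82% and 15.9% of the others. Of 16 marker lists of other cells, 11 were found more often in cycling cells in Stat4fl/flCD11cCre and 8 in WT, so the lists did not move as one. The classical monocyte markers summed to 1663 and 2016 CPM over the whole class, with none of the 12 at 0. The part of depth and of these markers in the result was not tested. With the 10% of cells with the highest doublet scores removed, the ratio of cycling shares was 0.328, and with a stricter marker gate 0.346. Scrublet, the program behind these scores, called 1 and 0 doublets, and how many cycling cells were doublets was not tested.

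**Figure D2:**
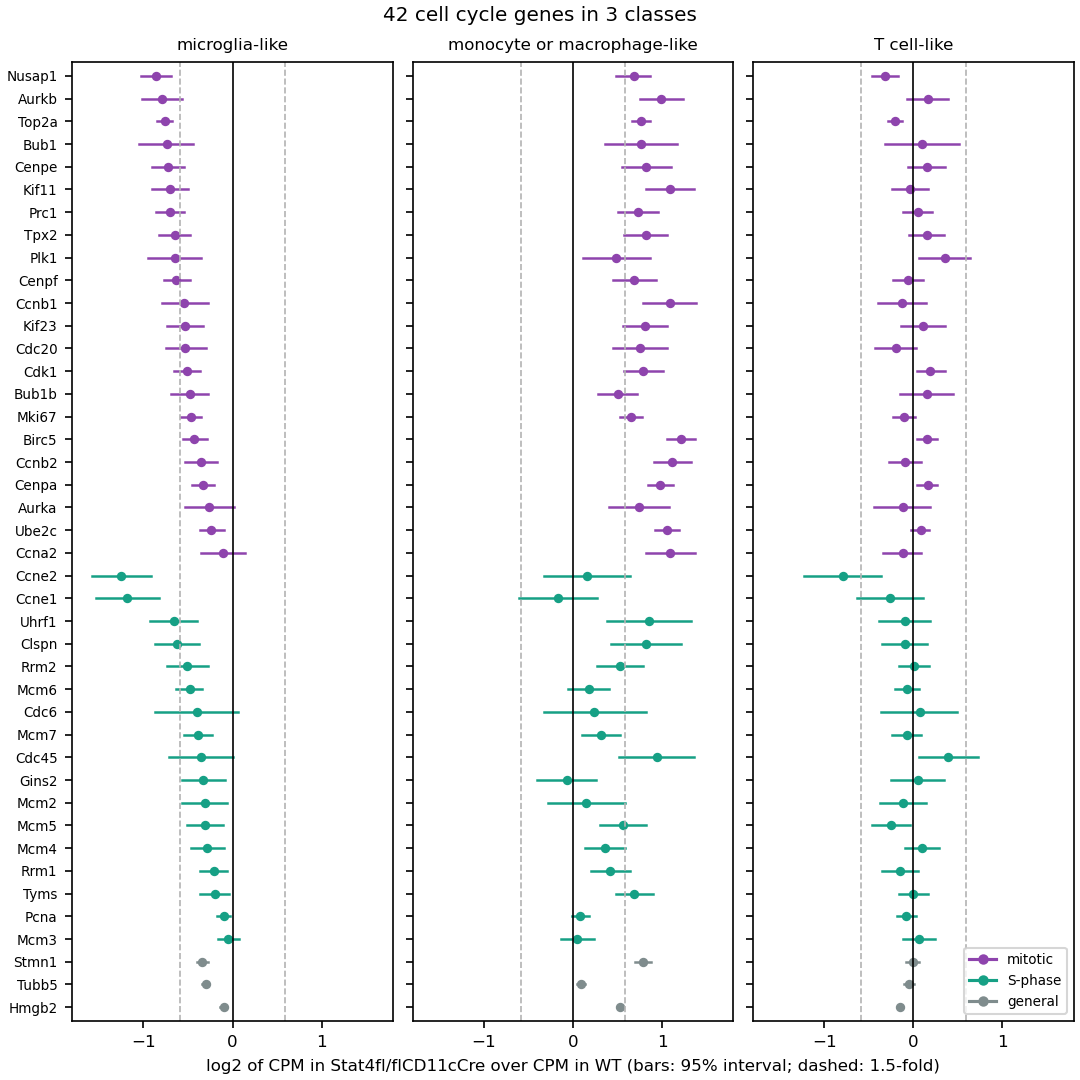
Log2 ratio of the CPM in Stat4fl/flCD11cCre over WT for the 42 genes in 3 classes, with the exact conditional interval as a bar; dashed lines mark 1.5-fold, and the order within each kind follows the microglia-like class. All 42 points lie below 0 in microglia-like cells, 40 lie above 0 in monocyte or macrophage-like cells, and in T cell-like cells Ccne2 alone lies past 1.5-fold.

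In monocyte or macrophage-like cells the values ran the other way, and the shares were close once a small set of cells with progenitor genes was left out. Here 124 of 2166 Stat4fl/flCD11cCre cells (5.72%) and 105 of 2714 WT cells (3.87%) were cycling, a ratio of 1.48 (1.13 to 1.94). Some cells of the class carried 10 or more UMIs of Elane, Mpo, Ctsg and Prtn3, which encode the primary granule proteins of granulocyte-monocyte progenitors: 74 in Stat4fl/flCD11cCre and 30 in WT. Of these, 56 (75.7%) and 23 (76.7%) were cycling. Without them the shares were 3.25% and 3.06%, with a ratio of 1.06 (0.76 to 1.49). In cells under 10000 UMIs the ratio was 0.824 (0.414 to 1.57). That limit kept unequal parts of the cycling cells, 15 of the 124 and 31 of the 105. The class differed in depth, with medians of 9968 and 7803 UMIs before thinning, and the part of depth was not tested.

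Of the 42 genes, 25 were higher by 1.5-fold or more in monocyte or macrophage-like cells of Stat4fl/flCD11cCre, against 2.77% of 12152 genes, and 0 were lower, against 8.04%. Their median log2 ratio was 0.71, and that of all genes -0.05. The mitotic genes accounted for 20 of the 25 (median 0.80), the S-phase genes for 4 of 17 (median 0.31) and Stmn1 for the last. Birc5, the survivin subunit of the chromosomal passenger complex, had 43.4 and 18.7 CPM (1.21, 1.06 to 1.37). Ube2c, the ubiquitin-conjugating enzyme of the anaphase-promoting complex, had 52.9 and 25.5 CPM (1.05, 0.92 to 1.19). Ccnb2 had 23.5 and 10.9 CPM (1.11, 0.91 to 1.32), and Cenpa, the histone of centromeres, 46.5 and 23.5 CPM (0.98, 0.84 to 1.12). Mki67 had 53.7 and 34.2 CPM (0.65, 0.53 to 0.77), Top2a 69.2 and 40.7 CPM (0.76, 0.66 to 0.87) and Ccnb1 11.2 and 5.29 CPM (1.09, 0.79 to 1.38). Of the general genes, Stmn1 had 101 and 58.7 CPM (0.79, 0.70 to 0.88), Hmgb2 654 and 454 CPM (0.53, 0.49 to 0.56) and Tubb5 271 and 254 CPM (0.09, 0.04 to 0.14). The S-phase genes differed less, with Mcm5 at 11.7 and 7.97 CPM (0.56, 0.30 to 0.82), Tyms at 18.4 and 11.4 CPM (0.69, 0.48 to 0.90) and Pcna at 68.0 and 64.2 CPM (0.08, -0.01 to 0.18). Of the other helicase subunits, Mcm4 had 14.7 and 11.4 CPM (0.36, 0.14 to 0.58) and Mcm7 15.5 and 12.5 CPM (0.31, 0.10 to 0.53). The intervals of the remaining subunits held 0, with Mcm2 at 3.7 and 3.33 CPM (0.15, -0.28 to 0.58), Mcm3 at 17.5 and 16.9 CPM (0.05, -0.14 to 0.24) and Mcm6 at 12.1 and 10.7 CPM (0.18, -0.06 to 0.41). The intervals of Ccne1 and Ccne2 held 0, at -0.17 (-0.61 to 0.27) and 0.16 (-0.33 to 0.64). Without the cells with progenitor genes, 11 genes were higher and 1 lower by 1.5-fold. The mitotic sum was then 293 and 213 CPM (0.46, 0.41 to 0.51) and the S-phase sum 150 and 154 CPM (-0.04, -0.10 to 0.03). In cells under 10000 UMIs, 0 were higher and 6 of 25 measured genes lower by 1.5-fold. For these subsets of cells the share over all genes was not computed.

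S-phase and mitotic transcripts did not keep the same proportion across classes. Per 100 thinned cells, microglia-like cells held 35.3 mitotic UMIs in Stat4fl/flCD11cCre and 75.2 in WT (ratio 0.469, 0.443 to 0.497), and 40.3 and 58.5 S-phase UMIs (ratio 0.689, 0.649 to 0.73). The mitotic ratio lay further from 1. Both intervals take each UMI as independent and are too narrow, since cycling cells held 6.66 and 5.51 mitotic UMIs each on average. In cells not called cycling, S-phase UMIs averaged 0.316 and 0.343 per cell and mitotic UMIs 0.0846 and 0.156. Monocyte or macrophage-like cells held 76.4 and 45.7 mitotic UMIs per 100 cells (ratio 1.67, 1.55 to 1.8) and 45.5 and 37.9 S-phase UMIs (ratio 1.2, 1.1 to 1.31). The share of these cells with 2 or more mitotic genes had a ratio of 1.39 (1.07 to 1.81). With 2 or more S-phase genes it was 1.35 (1.05 to 1.75), so counted by cells both kinds were close. In microglia-like cells the same ratios were 0.369 (0.309 to 0.439) for mitotic and 0.539 (0.462 to 0.628) for S-phase genes. T cell-like cells held 184 and 197 mitotic UMIs (ratio 0.933, 0.884 to 0.984) and 118 and 126 S-phase UMIs (ratio 0.936, 0.875 to 1.0). In the epithelium of the choroid plexus the values were 4.76 and 6.57 for mitotic and 11.9 and 18.2 for S-phase genes. Free RNA was not measured separately.

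Neutrophil-like cells were the most mitotic for their S-phase level. Over all their UMIs, S-phase transcripts were 0.214 times the mitotic ones in Stat4fl/flCD11cCre and 0.264 times in WT, the lowest of the classes in each library. In microglia-like cells these quotients were 0.783 and 0.647, in T cell-like cells 0.523 and 0.539, and in progenitor-like cells 0.758 and 0.621. The same shows in single cells, called S-positive or mitotic-positive with 2 or more genes of a kind. Of neutrophil-like cells, 1.12% and 1.29% were S-positive only, 1.96% and 4.37% were both, and 4.06% and 6.17% were mitotic-positive only. Of T cell-like cells, 128 of 1069 and 277 of 2270 were S-positive only, 8.14% and 9.3% both, and 6.83% and 5.64% mitotic-positive only. In progenitor-like cells 66.7% and 72.5% were both.

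**Figure D3:**
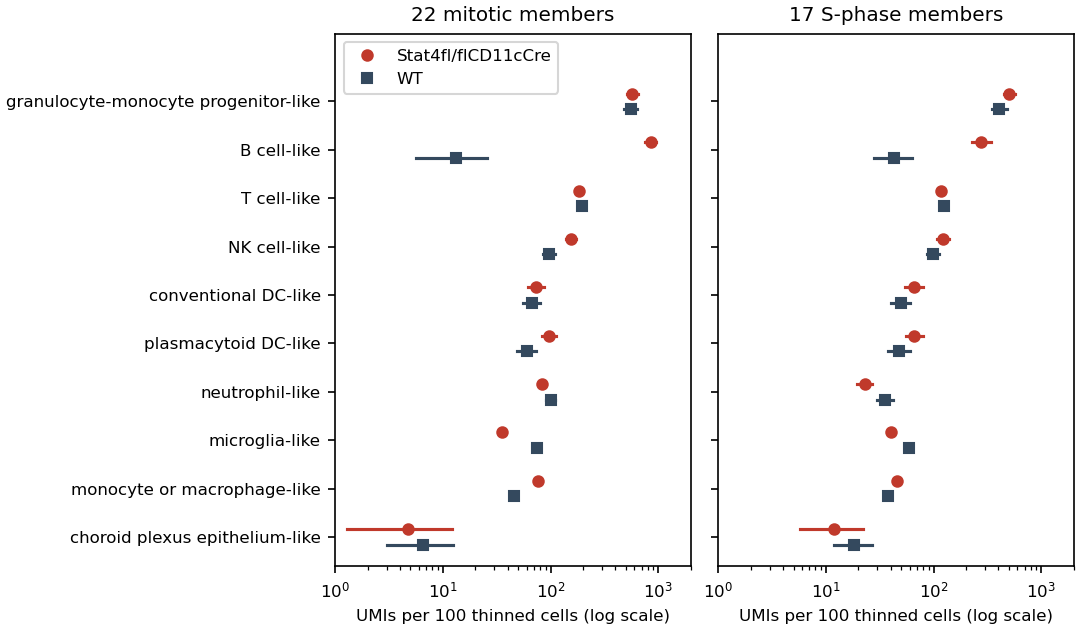
UMIs of the 22 mitotic genes (left) and 17 S-phase genes (right) per 100 cells thinned to 2500 UMIs, on a log scale, with exact Poisson intervals as bars, for Stat4fl/flCD11cCre (red circles) and WT (dark squares). Microglia-like cells lie at 35.3 and 75.2 mitotic UMIs and at 40.3 and 58.5 S-phase UMIs, and choroid plexus epithelium-like cells form the low end of both panels.

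Among neutrophil-like cells, 44 of 715 (6.15%) were cycling in Stat4fl/flCD11cCre and 41 of 389 (10.5%) in WT, a ratio of 0.584 (0.373 to 0.916). The direction was not the same at the far end. There, 27 of 715 and 8 of 389 cells held 10 or more of the genes, while 12 and 26 held 5 to 9. Requiring 5 or more genes gave a ratio of 0.624 (0.384 to 1.02). Cells led by specific granule genes such as Camp and Ltf, which are made before neutrophils mature, had 14.1% and 18.4% cycling cells (ratio 0.768, 0.469 to 1.26), and cells led by genes of mature neutrophils 1.55% and 3.43% (ratio 0.45, 0.135 to 1.5). Within each of them the interval held 1. The mature-led cells, which cycled least, made up 453 of 715 and 204 of 389, and the part of this mix was not tested. The class is shallow, and 334 and 315 of its cells fell under 2500 UMIs and were left out. Of 36 measured genes 3 were lower by 1.5-fold, against 19.2% of 8346 genes, and 1 was higher, against 1.49%. The lower genes were Tpx2, a spindle assembly factor, with 21.1 and 39.5 CPM (-0.90, -1.25 to -0.55), Mcm7, a helicase subunit, with 10.4 and 21.1 CPM (-1.02, -1.52 to -0.52), and Clspn, a replication checkpoint adaptor, with 4.7 and 10.1 CPM (-1.11, -1.87 to -0.37). The higher one was Aurka, a spindle pole kinase, with 12.8 and 6.4 CPM (0.99, 0.32 to 1.72). The median was -0.09, and that of all genes -0.21. Mki67 had 59.4 and 76.3 CPM (-0.36, -0.59 to -0.13), Top2a 89.8 and 108 CPM (-0.27, -0.46 to -0.08) and Tubb5 113 and 162 CPM (-0.52, -0.68 to -0.36). The interval of Ccnb1 held 0, at 14.1 and 10.9 CPM (0.37, -0.19 to 0.94).

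T cell-like cells had a higher share of cycling cells than microglia-like or monocyte or macrophage-like cells in both libraries, and a ratio close to 1. There were 199 of 1069 cycling cells (18.6%, 16.3 to 21.1) in Stat4fl/flCD11cCre and 438 of 2270 (19.3%, 17.7 to 21.0) in WT, a ratio of 0.965 (0.812 to 1.14). Cells with Foxp3, the regulatory T cell factor, had 22.4% and 26.5% cycling cells. Cells with Cd4 and no Foxp3 had 19.8% and 19.6%, and cells with Cd8a or Cd8b1 had 23.3% and 19.9%. Cells with Trdc, of the gamma-delta receptor, had 13.6% (8 of 59) and 8.82% (6 of 68). Cells with none of these genes had 9.73% (18 of 185) and 15.8% (71 of 448), with a ratio of 0.614 (0.344 to 1.04), the furthest below 1 of these parts. The interval of each of the 5 ratios held 1. Of the 42 genes, 1 was lower by 1.5-fold, against 4.42% of 11286 genes, and 0 were higher, against 2.3%; the median was -0.05, and that of all genes 0.01. The lower gene was Ccne2, at 6.95 and 12 CPM (-0.79, -1.23 to -0.36). Mki67 had 94.1 and 101 CPM (-0.11, -0.23 to 0.02) and Mcm5 31.8 and 37.7 CPM (-0.25, -0.46 to -0.04). Cdk1, the kinase that drives mitosis, had 64.9 and 56.7 CPM (0.19, 0.04 to 0.35). Top2a had 198 and 229 CPM (-0.21, -0.29 to -0.13), Nusap1 65.7 and 81.8 CPM (-0.32, -0.46 to -0.17) and Hmgb2 1325 and 1473 CPM (-0.15, -0.19 to -0.12). Cdc45 had 15.5 and 11.8 CPM (0.39, 0.06 to 0.72) and Plk1, a kinase of mitotic entry, 19.7 and 15.4 CPM (0.35, 0.06 to 0.64). For Ccnb1, Pcna, Tyms, Ccne1, Stmn1 and Tubb5 the interval held 0. In cells under 10000 UMIs, 19 of 40 measured genes were lower by 1.5-fold, and the share over all genes was not computed there. The ratio of cycling shares was 0.786 (0.605 to 1.01). That limit kept unequal parts of the cycling cells, 83 of the 199 and 240 of the 438.

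**Figure D4:**
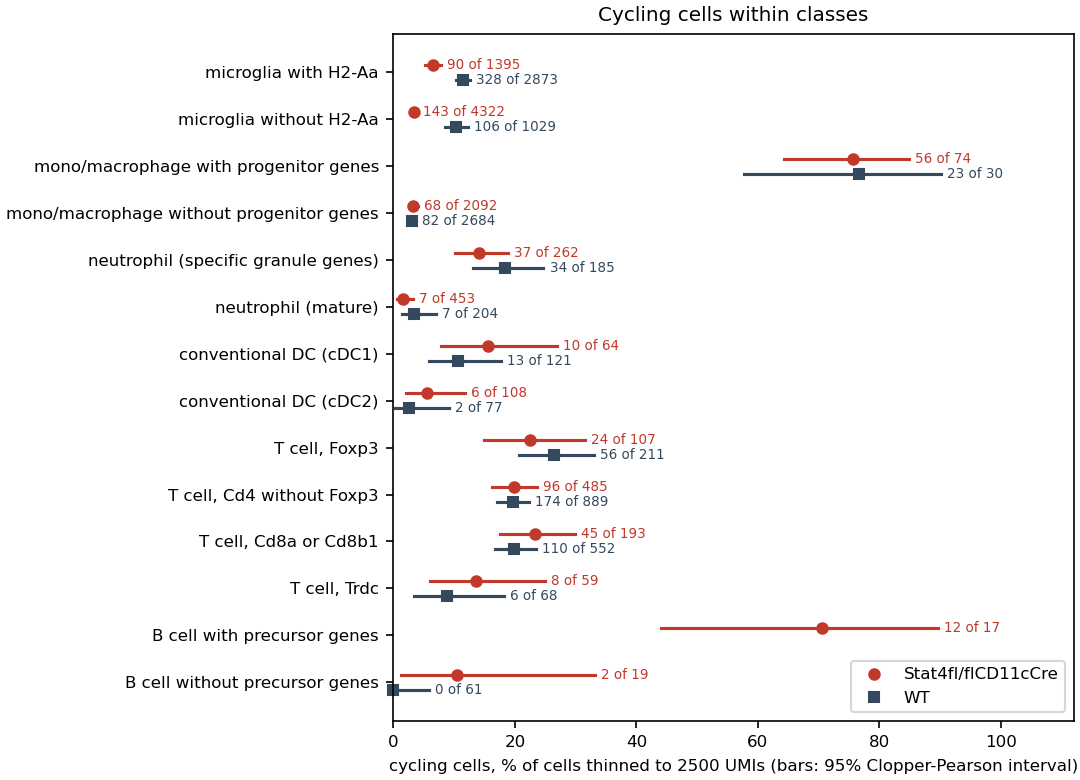
Share of cycling cells within parts of the classes, with Clopper-Pearson intervals as bars, red circles for Stat4fl/flCD11cCre and dark squares for WT. Microglia-like cells differ between the genotypes with and without H2-Aa (6.45% and 11.4%, 3.31% and 10.3%), and monocyte or macrophage-like cells without progenitor genes lie together at 3.25% and 3.06%.

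In NK cell-like cells the cycling shares were 29 of 204 and 34 of 248 (14.2% and 13.7%; ratio 1.04, 0.609 to 1.75), while levels were higher in Stat4fl/flCD11cCre. Of 31 measured genes 8 were higher by 1.5-fold, against 4.87% of 6224 genes, and 0 were lower, against 3.07%; the median was 0.39, and that of all genes 0.07. Cdk1 had 82.4 and 35.1 CPM (1.23, 0.75 to 1.73), Mki67 149 and 81.6 CPM (0.87, 0.54 to 1.21), and Prc1, which bundles the midzone of the spindle, 70.7 and 39.1 CPM (0.85, 0.37 to 1.35). Stmn1 had 438 and 294 CPM (0.58, 0.40 to 0.76), Top2a 235 and 162 CPM (0.54, 0.29 to 0.78) and Tyms 54.7 and 30.4 CPM (0.85, 0.30 to 1.42), while Mcm5 was nearly equal at 51.8 and 51.3 CPM (0.01, -0.47 to 0.50). Per 100 thinned cells there were 154 and 96.8 mitotic UMIs (ratio 1.6, 1.34 to 1.9) and 123 and 98.4 S-phase UMIs (ratio 1.25, 1.04 to 1.5). Median depth was 5136 and 3804 UMIs before thinning. Cells called cycling had medians of 15913 and 10003.5 UMIs, and the part of depth was not tested. In cells under 10000 UMIs, 0 of 8 measured genes were higher by 1.5-fold, and the share over all genes was not computed there.

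The DC classes were small. Conventional DC-like cells led by cDC1 genes had 10 of 64 (15.6%) and 13 of 121 (10.7%) cycling cells, and those led by cDC2 genes 6 of 108 (5.56%) and 2 of 77 (2.6%), with ratios of 1.45 (0.571 to 3.59) and 2.14 (0.382 to 21.7). In the whole class the ratio was 1.21 (0.562 to 2.63). The kinds of genes differed: the mitotic sum was 462 and 578 CPM (log2 ratio -0.32, -0.45 to -0.20) and the S-phase sum 335 and 254 CPM (0.40, 0.23 to 0.57). Cenpf, a kinetochore protein, had 9.49 and 28.7 CPM (-1.60, -2.41 to -0.83), and Rrm2, a subunit of ribonucleotide reductase, 21.8 and 9.55 CPM (1.19, 0.38 to 2.07). These sums run over all 177 and 205 cells of the class, with only 16 and 15 cells called cycling. Thinned sums gave 73.7 and 66.8 mitotic UMIs per 100 cells (ratio 1.1, 0.859 to 1.42), above 1 rather than below it. Mki67 had 47.0 and 30.3 CPM (0.63, 0.15 to 1.13), Ube2c 32.3 and 71.1 CPM (-1.14, -1.58 to -0.71) and Hmgb2 424 and 584 CPM (-0.46, -0.59 to -0.34). Plasmacytoid DC-like cells had mitotic sums of 641 and 400 CPM (0.68, 0.52 to 0.84) and S-phase sums of 282 and 248 CPM (0.18, -0.03 to 0.40), with 15 and 11 cycling cells. Thinned sums in this class gave ratios of 1.61 (1.25 to 2.08) for mitotic and 1.38 (1.03 to 1.85) for S-phase genes. Ube2c had 64.3 and 17.7 CPM (1.86, 1.18 to 2.61) there, Stmn1 289 and 140 CPM (1.05, 0.79 to 1.31) and Birc5 48.8 and 21.0 CPM (1.22, 0.55 to 1.92), while the interval of Mki67 held 0, at 42.3 and 28.6 CPM (0.56, lower bound -0.05).

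Granulocyte-monocyte progenitor-like cells had the highest S-phase levels, with sums of 1909 and 1532 CPM (log2 ratio 0.32, 0.23 to 0.40). Their mitotic sums were 2518 and 2466 CPM (0.03, -0.04 to 0.10). Mki67 had 199 and 123 CPM (0.70, 0.41 to 1.00), Mcm6 193 and 123 CPM (0.65, 0.36 to 0.95), Top2a 440 and 415 CPM (0.08, -0.08 to 0.25) and Hmgb2 2648 and 2932 CPM (-0.15, -0.21 to -0.08). Stmn1 had 1094 and 798 CPM (0.45, 0.34 to 0.57), and Ccnb1 70.0 and 70.5 CPM (-0.01, -0.42 to 0.42). Nearly every cell of the class cycled in both libraries, and the cells were deep, with medians of 34812 and 27575 UMIs.

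B cell-like cells were few, and several genes of B cell precursors were found in Stat4fl/flCD11cCre cells and in none of the WT cells. In Stat4fl/flCD11cCre 14 of 36 cells were cycling (38.9%, 23.1 to 56.5), and in WT 0 of 61, for which a limit of 3 counts allows a share of up to 4.92% and the upper Clopper-Pearson bound is 5.87%. The 14 cycling cells held a median of 14.5 of the 39 genes, the highest of any class. Igll1 and Vpreb1, which form the surrogate light chain of B cell precursors, were found in 13 and 14 of 42 Stat4fl/flCD11cCre cells and in 0 of 86 WT cells. Rag1, of the recombinase of receptor genes, was found in 7 of 42 and 0 of 86 cells. Ighd, the IgD heavy chain of mature naive B cells, was found in 14 of 42 and 65 of 86 cells, and in 0 of the 14 cycling cells. Of the 17 thinned Stat4fl/flCD11cCre cells with 2 or more of 7 precursor genes, 12 were cycling (70.6%). No thinned WT cell met this rule. Without these, 2 of 19 Stat4fl/flCD11cCre cells and 0 of 61 WT cells were cycling. These precursor genes were chosen after the values of the class were seen. The summed mitotic level was 5463 CPM (5229 to 5705) in Stat4fl/flCD11cCre and 71.9 CPM (46.1 to 107) in WT. Top2a had 808 and 6.0 CPM, Mki67 352 and 8.99 CPM, and Pcna 261 and 45.0 CPM (2.54, 1.75 to 3.43). These levels come from few cells, and the stage of the cells and the genotype cannot be told apart.

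Over all kept cells together, the mitotic sum was 558 CPM in Stat4fl/flCD11cCre and 511 CPM in WT (log2 ratio 0.13, 0.11 to 0.14), while the cycling share was 7.92% and 10.9%. CPM weights each cell by its UMIs, whereas a share counts each cell once. Of all cycling cells, microglia-like cells made up 25.5% and 33.1%, T cell-like cells 21.8% and 33.4%, and ungated cells 19.8% and 14.9%. Ungated cells had cycling shares of 16.1% and 10.4% (ratio 1.56, 1.26 to 1.91) at medians of 12851 and 10882 UMIs. Among them were 77 and 33 cells with progenitor genes, of which 67 and 29 were cycling.

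Cell cycle genes outside the 42 were counted from lists made with earlier results of these data known. In microglia-like cells, 11 of 24 other S-phase genes (median -0.53) and 19 of 35 other mitotic genes (median -0.61) were lower by 1.5-fold, and 0 were higher, where 9.17% of all genes were lower and 6.78% higher. Of 15 genes of the E2F and MYB-MuvB machinery, 2 were lower by 1.5-fold: E2f7 with 1.16 and 3.0 CPM (-1.37, -1.84 to -0.92) and E2f8 with 2.93 and 4.77 CPM (-0.70, -1.02 to -0.39), which encode repressors of the E2F family. A count of 2 of 15 is near the 9.17% of all genes. E2f1, an activator, had 7.49 and 9.99 CPM (-0.41, -0.62 to -0.21), and Rb1, the retinoblastoma gene, 134 and 113 CPM (0.25, 0.20 to 0.31). Of 10 genes for D-type cyclins, CDKs and enzymes that act on CDKs, 3 were lower by 1.5-fold (9.17% of all genes were lower). These were Wee1, which holds back CDK1, with 4.97 and 10.2 CPM (-1.03, -1.26 to -0.80), Ccnd2, cyclin D2, with 17.6 and 27.5 CPM (-0.64, -0.77 to -0.52), and Cdc25c, which activates CDK1, with 0.972 and 1.62 CPM (-0.73, -1.29 to -0.18). Of 7 CDK inhibitors 1 was higher by 1.5-fold (6.78% of all genes were higher), Cdkn1c, which encodes p57, with 9.36 and 4.29 CPM (1.13, 0.87 to 1.39). Cdkn1a, which encodes p21, had 114 and 139 CPM (-0.29, -0.34 to -0.24). In monocyte or macrophage-like cells, 25 of 35 other mitotic genes (median 0.75) and 5 of 22 measured other S-phase genes (median 0.09) were higher by 1.5-fold, where 2.77% of all genes were higher. Foxm1, the late cell cycle activator, had 3.74 and 1.81 CPM (1.05, 0.54 to 1.57) there and was 1 of 3 of the 15 E2F and MYB-MuvB genes that were higher by 1.5-fold. Of the 10 genes for D-type cyclins, CDKs and enzymes that act on CDKs, 1 was lower and 1 higher by 1.5-fold there, where 8.04% and 2.77% of all genes were. Ccnd1, cyclin D1, was lower, with 15.8 and 26.4 CPM (-0.73, -0.91 to -0.56). Cdc25c was higher, with 1.87 and 0.652 CPM (1.52, 0.71 to 2.39). In T cell-like cells 1 of the 35 other mitotic genes was lower by 1.5-fold, and no gene of the other 4 lists passed in either direction. In neutrophil-like cells 4 of 8 measured genes of the list with D-type cyclins and CDKs were lower by 1.5-fold, where 19.2% of all genes were lower. Among them was Cdk6, a partner of the D-type cyclins, with 21.6 and 52.3 CPM (-1.27, -1.60 to -0.94). The list had 1 gene higher by 1.5-fold, where 1.49% of all genes were higher: Cdc25b, with 15.6 and 10.1 CPM (0.62, 0.06 to 1.21).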

How the data were processed

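The authors deposited, per the file headers, raw UMI counts per gene and barcode of 2 libraries made with a 10x Genomics 3' kit; the submitters' processing notes name Cell Ranger 7.0.0, mm10, bcl2fastq, STAR, Seurat and R 4.3.0. Whether intronic reads were counted is not given in the sources used here. Counts of 5 antibody tags were left out. Each library has the genotype that its label names.

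Cells were barcodes with at least 500 genes, at least 1000 gene UMIs and a mitochondrial share of UMIs under 10%. A marker counted as found at 1 or more UMI per 10000. A cell entered a class with 3 or more and 30% or more of a marker list found, leading every other class by 15 percentage points, so that cells with markers of several classes stayed ungated. Scrublet in scanpy 1.11.5 called 1 and 0 doublets, so it did not work, and leaving out the top 10% of scores was an alternative. For shares each cell was thinned to 2500 UMIs, and shallower cells were left out. Levels are UMIs summed per class and library, as CPM. Shares carry Clopper-Pearson intervals, and a share of 0 also the limit of 3 counts over its cells, levels exact Poisson intervals, and ratios exact conditional binomial intervals (scipy 1.17.1), which are wide for shares near 100%. Ratios are given for genes with 50 or more UMIs, and the counts past 1.5-fold for the 5 classes that held at least 200 cells per library. Intervals of ratios were tested on simulated counts drawn independently for each gene. That setting leaves out the grouping of UMIs within cycling cells, so it cannot show how well the intervals hold there. All 42 genes are described by kind. Those named in a class are among the 4 highest and 4 lowest by the interval bound nearest to 1, or among Mki67, Top2a, Ccnb1, Mcm5, Pcna, Tyms, Ccne1, Ccne2, Stmn1, Hmgb2 and Tubb5. Outside this rule, Mcm6 in microglia-like cells was named after its values were seen, and Mcm4 and Mcm7 were named in monocyte or macrophage-like cells. The genes, lists and classes were chosen with earlier results of these data known, and the sets with progenitor and precursor genes after the values were seen.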

Additional observations from a re-analysis of the deposited data

Results flagged for a closer look

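The change of the cycling share between Stat4fl/flCD11cCre and WT had opposite directions in different classes, with intervals that leave out 1. The ratio was 0.366 in microglia-like cells and 0.584 in neutrophil-like cells, and 1.48 in monocyte or macrophage-like cells. With 5 or more genes required, the interval of neutrophil-like cells held 1 (0.624, 0.384 to 1.02). B cell-like cells had 38.9% cycling cells in Stat4fl/flCD11cCre and 0 of 61 in WT. The difference between the classes was not tested, since each genotype has 1 library. Beside it stand the progenitor genes in monocyte or macrophage-like cells, without which the ratio was 1.06, and the precursor genes in B cell-like cells, without which 2 of 19 and 0 of 61 cells were cycling.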

How the results depend on the processing

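Of 154 recomputed values, 125 stayed within the interval of the value given, or within 1.5 times of a count. Some settings left a class unchanged, and small classes have wide intervals, so this tally does not measure how firm the values are. Counting 2 or more genes gave a ratio of cycling shares of 0.483 in microglia-like cells, and no thinning 0.622. Thinning to 5000 UMIs gave 0.465 in microglia-like and 1.08 in monocyte or macrophage-like cells, and a share of 73.7% in B cell-like cells of Stat4fl/flCD11cCre. Some alternatives were chosen after seeing the data. Among these was a limit to cells under 10000 UMIs, which removes many cycling cells. It kept 88 of 233 and 243 of 434 in microglia-like cells, and 15 of 124 and 31 of 105 in monocyte or macrophage-like cells. These parts are unequal, so the ratios under this limit do not show the part of depth. The ratios were 0.233 in microglia-like, 0.824, the opposite direction, in monocyte or macrophage-like and 0.291 in conventional DC-like cells. They were 0.319 in neutrophil-like and 0.786 in T cell-like cells, and the B cell-like share was 4.55%. The counts past 1.5-fold were then 36 lower in microglia-like, 0 higher in monocyte or macrophage-like, 19 lower in T cell-like and 0 higher in NK cell-like cells. Without cells with progenitor genes the monocyte or macrophage-like ratio was 1.06, with counts of 24 lower in microglia-like, 11 higher in monocyte or macrophage-like and 8 lower in neutrophil-like cells. Without precursor genes the B cell-like share was 10.5%. Among the planned ones, sums of thinned cells gave 34 lower in microglia-like, 14 higher in monocyte or macrophage-like, 2 lower in T cell-like and 2 higher in NK cell-like cells, with fewer genes measured (9 in NK cell-like cells). Leiden clusters gave 30 higher in NK cell-like and 5 lower in neutrophil-like cells, the stricter gate 5 lower in neutrophil-like cells, and a minimum of 20 or 1 UMIs 15 higher in NK cell-like cells. Except where its construction shows it, the cause was not tested. The share over all genes was not computed for these settings, so the counts past 1.5-fold have no background there. Leiden clusters gave no class for conventional DC, progenitor and B cells. The ratio of microglia-like cells stayed under 1 in all these settings, from 0.233 to 0.622. No paired analysis was possible because each genotype has 1 library, which also leaves no replicate to leave out. The number of cells limits the small DC, NK cell and B cell classes, and depth the neutrophil-like class.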
